A study of Mus musculus with 6 samples.

Results

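The genes described here carry out DNA repair, with *Ogg1*, *Mutyh* and *Nudt1*, whose products limit oxidized guanine in DNA, left out. The list keeps base excision repair, which MUTYH itself initiates by removing adenine opposite oxidized guanine. It comprised 51 genes of 4 routes: 21 of base excision repair, 5 of mismatch repair, 11 of nucleotide excision repair and 14 of strand break repair. Each gene was read from the transcript cluster, the array's unit for one gene locus, that carried its symbol and no other, and where a gene had several such clusters the one with the highest mean over the 6 arrays was used. In this way 47 genes were found among 23521 transcript clusters with 1 symbol, out of 41345 in all: 18 of base excision, 5 of mismatch, 10 of nucleotide excision and 14 of strand break repair. *H2afx* was found under its newer symbol *H2ax*. *Apex1*, *Tdg*, *Mpg* and *Ddb2* lay only on clusters that carried the symbol of another gene as well, and no value is given for them.

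Hippocampal RNA was measured on GeneChip Mouse Gene 2.0 ST arrays, with 1 array for each of 3 mice of genotype App[NL-G-F/NL-G-F] that were also Mutyh-/-, here called NL-G-F·Mutyh, and for each of 3 mice of the wild type. All 6 mice were females of 6 months of age, and they were perfused with saline before dissection. The NL-G-F·Mutyh mice were homozygous for a knock-in of the Swedish, Arctic and Iberian mutations into the endogenous *App* gene, which stays under its own promoter, and were deficient in *Mutyh*, which encodes the glycosylase that removes adenine paired with oxidized guanine. The wild-type arrays came from an earlier series, so that genotype and series cannot be told apart, and since no group with 1 of the 2 alleles was analysed here, the parts of the *App* and *Mutyh* alleles cannot be told apart either.

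In base excision repair a glycosylase removes a damaged base, the abasic site is cut and trimmed, and a polymerase and a ligase close the gap, while poly(ADP-ribose) polymerases mark the break. Mismatch repair removes bases misplaced during replication and nucleotide excision repair cuts out a short stretch of strand around a bulky lesion, either anywhere in the genome or where a transcribing polymerase has stalled. Breaks of both strands are sensed by the kinase ATM, while the kinase ATR responds to single-stranded DNA. Breaks of both strands are closed by end joining, which works in neurons, or by homologous recombination, which needs a replicated sister chromatid.

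Signals were log2 values, and a gene was tested when its mean reached a minimum of log2(50), which is 5.64, in 1 or both groups. Of the 47 genes, 42 were tested and 5 (*Neil2*, *Neil3*, *Ung*, *Brca1* and *Brca2*) lay below the minimum in both groups. *Mutyh* itself lay below it, at 5.37, 5.46 and 5.42 on the NL-G-F·Mutyh arrays, against 5.44, 5.11 and 5.28 on the wild-type arrays, so its signal gave no check of the knockout. *App* stood at 11.83, 11.91 and 12.07 on the NL-G-F·Mutyh arrays, against 12.15, 12.05 and 11.97 on the wild-type arrays (limma, adjusted p = 0.585). The mean signal of the 42 tested repair genes was 7.15, 7.12 and 7.15 on the NL-G-F·Mutyh arrays, against 7.10, 7.12 and 7.10 on the wild-type arrays.

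Differences in the repair genes were small. These are bulk tissue signals, in which fewer cells of a type and less RNA per cell cannot be told apart. No member passed limma's test at an adjusted p under 0.05, where 13 of 21159 tested clusters (0.0614%) did. At an unadjusted p under 0.05, 3 of the 42 tested members (7.14%) were higher in NL-G-F·Mutyh hippocampi (*Exo1*, *Xpa* and *Ercc6*) and 0 were lower, against 13.6% of all tested clusters in either direction, 8.88% higher and 4.75% lower. The difference between these shares was not tested. Of these members, *Exo1* reached the minimum in NL-G-F·Mutyh mice only. With the minimum required in both groups, 2 of 41 tested members (*Xpa* and *Ercc6*) were at that threshold, against 12.4% of all clusters tested. Leaving out 1 array brought *Fen1* (lower) and *Xpc* (higher) past that threshold without wild-type replicate 1, *Ddb1* (lower) without NL-G-F·Mutyh replicate 1, *Ercc2* (lower) and *Lig1* (higher) without NL-G-F·Mutyh replicate 2, and *Lig3* and *Mbd4* (both higher) without NL-G-F·Mutyh replicate 3. Under other scalings the counts were 3 higher and 2 lower (quantile normalization) and 2 higher and 3 lower (each array centred on its median over all clusters), and the share of higher clusters among all those at an unadjusted p under 0.05 was 65.1% as deposited, 50.4% after quantile normalization and 39.2% after centring. The median difference over the tested members was 0.02 on the log2 scale, as over all tested clusters, with 25 members above and 17 below 0. A difference of under 0.2 in size was found for 39 of 42 members (92.9%), against 75.9% of all tested clusters. The median size was nearly the same, at 0.10 in the members and 0.11 in all tested clusters. The members also varied less within the groups, with a median SD of 0.0667 (NL-G-F·Mutyh) and 0.08 (wild-type), against 0.1 and 0.117. The 95% intervals of the members reached a median of 0.19 to either side of the difference, with a range of 0.15 to 0.34. With 3 mice per group, a difference smaller than the reach of the gene's own interval was not resolved.

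**Figure D1:**
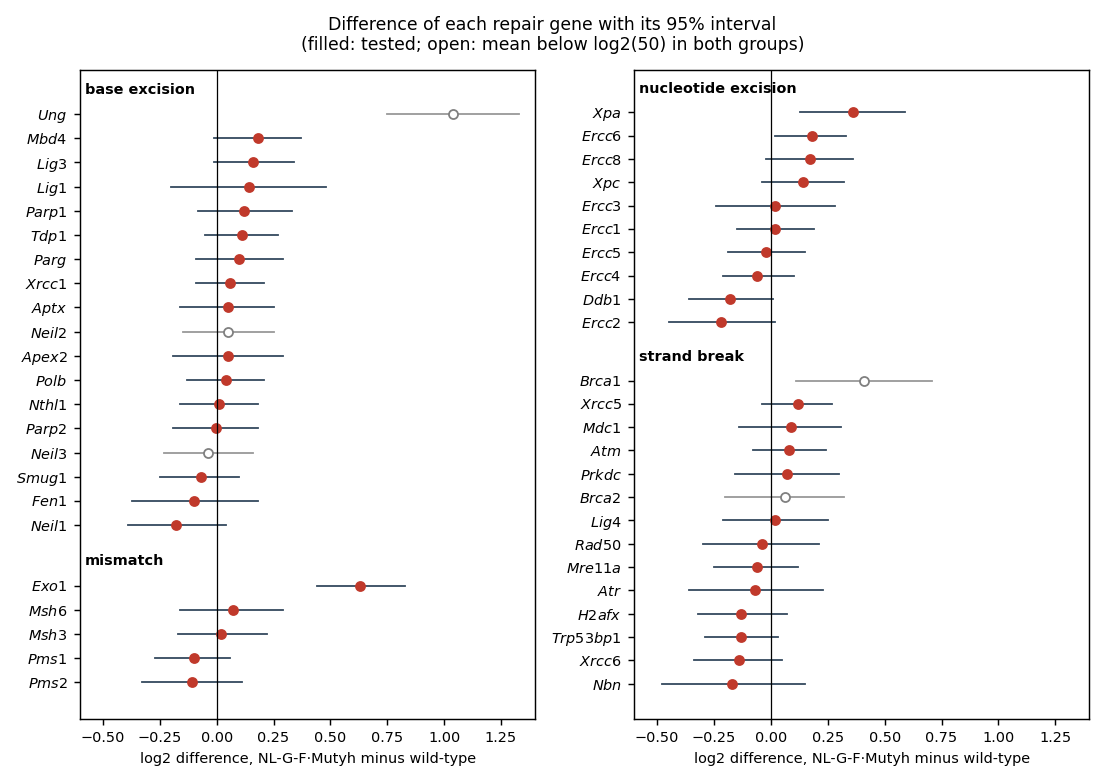
The log2 difference (NL-G-F·Mutyh minus wild-type, horizontal axis) of each of 47 repair genes is drawn as a point with its 95% interval, grouped by repair route; filled points were tested and open grey ones had a mean below log2(50) in both groups. Among the tested genes only *Exo1* (0.63), *Xpa* (0.36) and *Ercc6* (0.18) have an interval that excludes 0. The mean of *Exo1* reached log2(50) in NL-G-F·Mutyh mice only.

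**Figure D2:**
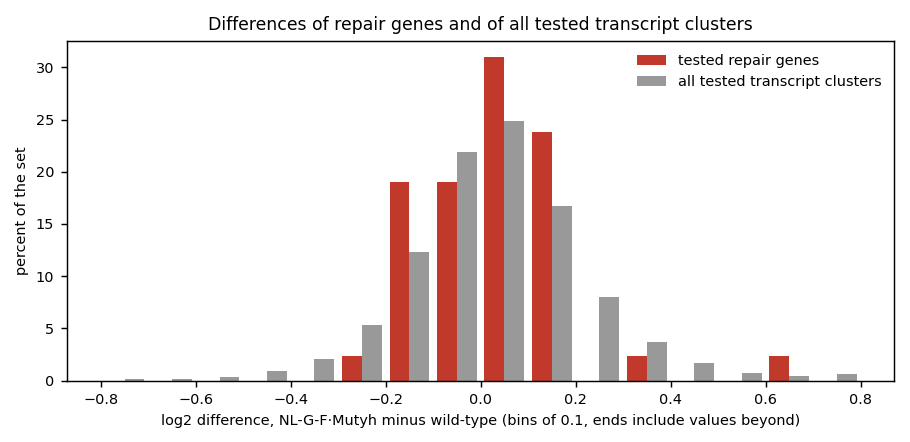
The percent of 42 tested repair genes (red) and of 21159 tested transcript clusters (grey) is plotted for bins of 0.1 in the log2 difference (NL-G-F·Mutyh minus wild-type), the end bins also holding values beyond. Repair genes gather around 0, with 92.9% of them under 0.2 in size, against 75.9% of all tested clusters. The median size is 0.10 in repair genes and 0.11 in all tested clusters.

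The arrays of the 2 groups differed in how often they shared exact values. The same deposited value stood on both arrays of a pair for 2123, 1916 and 2033 of 41345 clusters among the 3 NL-G-F·Mutyh pairs, against 47, 34 and 43 among the 3 wild-type pairs, and for 0 to 3 clusters between the groups. Tested clusters with a value shared between NL-G-F·Mutyh arrays had a median SD of 0.0397 over the NL-G-F·Mutyh arrays and 0.101 over the wild-type arrays. Equal values narrow the SD by themselves, so this cannot show that the group varied less. Tested clusters without such a value had a median SD of 0.107 and 0.119. Of the 47 repair genes, 6 had equal values on NL-G-F·Mutyh arrays (*Nthl1* on all 3, *Ung*, *Fen1*, *Msh6*, *Pms1* and *Xpc* on a pair) and 0 had equal values on wild-type arrays. An unadjusted p under 0.05 was found for 11.2% of the tested clusters with such a shared value, against 13.9% of those without. Both of the following alternatives were chosen after seeing the data. With these clusters removed, *Exo1*, *Xpa* and *Ercc6* remained at an unadjusted p under 0.05 among 37 tested members, against 13.3% of all clusters tested, and 14 clusters passed the adjusted test. With the spread taken from the wild-type arrays alone, 2 members (*Exo1* and *Xpa*) remained at an unadjusted p under 0.05, against 10.7% of all tested clusters. The sources do not say whether both groups were summarized in one run, and genotype and processing run cannot be told apart.

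**Figure D3:**
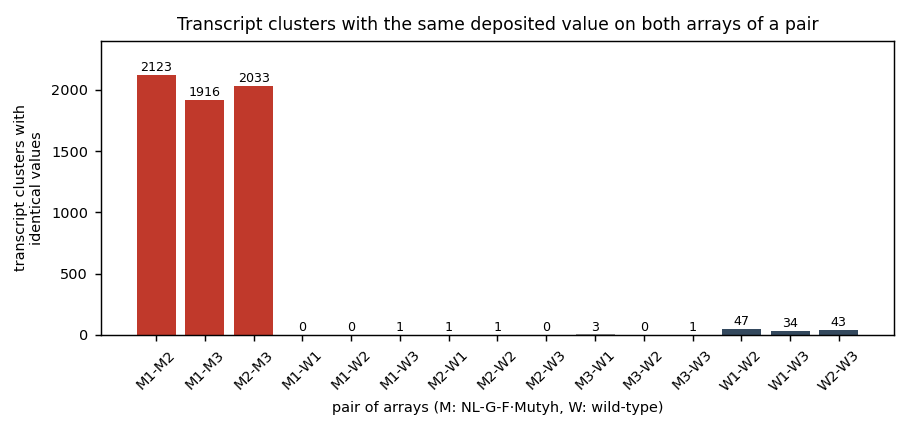
Bars give the number of transcript clusters (vertical axis) whose deposited value is identical on both arrays of a pair, for the 15 pairs of the 6 arrays (red, both NL-G-F·Mutyh; grey, one of each group; dark blue, both wild-type). The 3 NL-G-F·Mutyh pairs share 1916 to 2123 values, against 34 to 47 in the wild-type pairs.

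Base excision repair held no gene at an unadjusted p under 0.05 among its 15 tested members, against 13.6% of all tested clusters. The difference from that share was not tested for any route. The median difference of base excision repair was 0.05, with 11 members above and 4 below 0. Of all 21159 tested clusters, 12017 were above and 9142 below 0. The range over the members was -0.18 to 0.18, or 88.5% to 113% of wild-type. The median was 0.004 when each array was centred on its median over all clusters.

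Among the glycosylases, 4 of 7 genes reached the minimum. *Mbd4*, whose product removes thymine or uracil opposite guanine at methylated CpG sites, stood at 6.42, 6.46 and 6.24 in NL-G-F·Mutyh mice, against 6.18, 6.19 and 6.21 in wild-type mice. The groups did not overlap, the difference was 0.18 ± 0.08 (SE; 113% of wild-type) and its 95% interval ran from -0.01 to 0.37 (limma, adjusted p = 0.38). *Neil1*, whose product excises oxidized pyrimidines, stood at 6.08, 6.25 and 6.23 in NL-G-F·Mutyh mice, against 6.27, 6.51 and 6.31 in wild-type mice. All 3 NL-G-F·Mutyh values lay below the wild-type ones, at 88.5% of wild-type (difference -0.18, 95% interval -0.39 to 0.04, limma adjusted p = 0.437). *Nthl1*, another glycosylase of oxidized pyrimidines, was at 5.94 on all 3 NL-G-F·Mutyh arrays, against 6.00, 5.95 and 5.83 in wild-type mice, and *Smug1*, a uracil glycosylase, was at 95% of wild-type, with overlapping groups for both.

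*Ung*, the main uracil glycosylase, had the largest difference of the 47 genes but lay below the minimum. Its values were 5.13, 5.21 and 5.13 in NL-G-F·Mutyh mice, against 3.88, 4.23 and 4.25 in wild-type mice. The groups were far apart relative to their spread, with a difference of 1.04 ± 0.12 (SE; 95% interval 0.75 to 1.33), or 205% of wild-type. In a fit without a minimum its p was 9.76e-05 and its adjusted p 0.0923 (limma). Among the 20186 clusters below the minimum in both groups, 18% had an unadjusted p under 0.05 in such a fit, and 97 (0.481%) had a difference at least as large as that of *Ung*. The arrays read these clusters near their dim end, so 205% is a ratio of dim signals. *Neil2* stood at 5.50, 5.53 and 5.52 in NL-G-F·Mutyh mice, against 5.56, 5.36 and 5.45 in wild-type mice. *Neil3* stood at 5.05, 5.10 and 5.03 in NL-G-F·Mutyh mice, against 5.17, 5.13 and 5.01 in wild-type mice. Both, which cut at oxidized bases in open or single-stranded DNA, overlapped between the groups and lay below the minimum, at 104% and 97.3% of wild-type.

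The promoter of *Ung* is shown because no other of the 47 genes differed as much. The 250 bases before its start (RefSeq, GRCm38.p6, chr5:114130185-114130434, plus strand) are printed 5′ to 3′, with capitals for the GC box that the factor SP1 is known to bind (GGGCGG, or CCGCCC where it lies on the other strand).
Ung: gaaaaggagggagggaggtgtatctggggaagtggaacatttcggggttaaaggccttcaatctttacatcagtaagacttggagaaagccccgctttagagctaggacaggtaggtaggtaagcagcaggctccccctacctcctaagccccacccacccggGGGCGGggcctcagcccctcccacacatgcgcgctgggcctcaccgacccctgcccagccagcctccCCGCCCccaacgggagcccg
It held 2 GC boxes and none of the E2F motif words (TTTCCCGC, TTTCGCGC, TTTGCCGC and TTTGGCGC, both strands), a motif of many genes that rise in S phase. Over the 37 of 47 members with a promoter in the RefSeq table, 5 (13.5%; *Nthl1*, *Msh3*, *Mdc1*, *Brca2* and *Xrcc6*) held an E2F word, against 1.91% of 27025 promoters. A GC box was found in 19 (51.4%) of them, against 32.9%, and CCAAT in 18 (48.6%), against 34.5%. The member promoters had a median of 16 CpG sites and a GC content of 56.8%, against 6 sites and 52% over all promoters. None of the 5 members with an E2F word was at an unadjusted p under 0.05, with or without the minimum. Over all tested clusters 13.6% were at that threshold, so 5 members are too few to show a lower share. *Exo1* was not among the 37, so its promoter was not searched.

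After base removal, the site is cut and its ends are cleaned. *Tdp1*, which frees a strand end from trapped topoisomerase, stood at 8.29, 8.27 and 8.32 in NL-G-F·Mutyh mice, against 8.24, 8.20 and 8.11 in wild-type mice, and the groups did not overlap (0.11, 108% of wild-type, limma adjusted p = 0.511). *Aptx*, which removes AMP from abortive ligation ends, and the nuclease *Apex2* were at 103% and 104% of wild-type. *Fen1*, the flap endonuclease of long-patch repair, stood at 5.64, 5.69 and 5.64 in NL-G-F·Mutyh mice, against 5.53, 5.78 and 5.96 in wild-type mice. The wild-type values enclosed the others, the difference was -0.10 (95% interval -0.37 to 0.18) and it became 0.01 without wild-type replicate 3.

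The 4 genes of gap filling and ligation all had positive differences, from 0.04 to 0.16, where 12017 of 21159 tested clusters were above 0. With each array centred on its median over all clusters, the differences of *Lig3* and *Lig1* fell to 0.11 and 0.09. *Lig3*, the ligase that works with XRCC1, stood at 7.34, 7.24 and 7.17 in NL-G-F·Mutyh mice, against 7.10, 7.05 and 7.11 in wild-type mice. Each NL-G-F·Mutyh value exceeded each wild-type value (0.16 ± 0.07, SE; 112% of wild-type, 95% interval -0.01 to 0.34, limma adjusted p = 0.381). *Lig1*, the replicative ligase, had the widest spread of the tested members in NL-G-F·Mutyh mice, at 6.43, 5.97 and 6.49, against 6.19, 6.19 and 6.08 in wild-type mice. Its difference was 0.14 (95% interval -0.20 to 0.48), 0.30 without NL-G-F·Mutyh replicate 2 (unadjusted p = 0.0146) and -0.02 with array weights. *Polb*, the gap-filling polymerase, and the scaffold *Xrcc1* were at 103% and 104% of wild-type, with overlapping groups.

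Of the poly(ADP-ribose) cycle, *Parp1*, the main polymerase that binds nicks, stood at 9.07, 8.98 and 8.86 in NL-G-F·Mutyh mice, against 8.95, 8.78 and 8.82 in wild-type mice. The groups overlapped at 109% of wild-type (0.12, 95% interval -0.08 to 0.33). *Parg*, which removes the polymer, stood at 7.82, 7.97 and 7.81 in NL-G-F·Mutyh mice, against 7.77, 7.68 and 7.83 in wild-type mice. It was at 107% and *Parp2* at 99.7% of wild-type, and neither separated the groups.

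Mismatch repair had no settled direction over its 5 genes, with one of them, *Exo1*, showing the largest difference of all tested members. The median of 0.02 turned to -0.04 with the minimum required in both groups, -0.03 with centring on the median over all clusters and -0.01 with array weights, and ran from -0.01 to 0.07 when 1 array was left out, the highest without NL-G-F·Mutyh replicate 1. *Exo1* encodes the exonuclease that removes the strand carrying the mismatch, and it also resects broken ends. It stood at 5.65, 5.71 and 5.70 in NL-G-F·Mutyh mice, against 5.02, 5.19 and 4.94 in wild-type mice. The groups lay apart by more than their ranges. The difference was 0.63 ± 0.08 (SE; 95% interval 0.44 to 0.83), or 155% of wild-type, with an unadjusted p = 0.000148 and adjusted p = 0.0981 (limma). The adjusted p ranged from 0.0319, with clusters of 1 symbol only, to 0.406 over the 17 alternatives in which *Exo1* was tested. The unadjusted p stayed under 0.05 in all 17. With the minimum required in both groups the gene was not tested. *Exo1* was tested only because its NL-G-F·Mutyh mean reached the minimum. Of the 893 clusters that entered in the same way, 42.9% were at an unadjusted p under 0.05 and 105 (11.8%) had a difference at least as large.

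The remaining mismatch genes lay close to wild-type. *Msh3*, whose product recognises insertion and deletion loops, stood at 7.26, 7.38 and 7.42 in NL-G-F·Mutyh mice, against 7.28, 7.44 and 7.26 in wild-type mice. *Msh6*, whose product recognises mispaired bases, stood at 6.34, 6.48 and 6.48 in NL-G-F·Mutyh mice, against 6.47, 6.20 and 6.43 in wild-type mice. Both overlapped between the groups, at 102% (95% interval of the log2 difference -0.17 to 0.22) and 105% (-0.16 to 0.29) of wild-type. *Pms1*, a MutL subunit, stood at 6.32, 6.32 and 6.33 in NL-G-F·Mutyh mice, against 6.36, 6.40 and 6.51 in wild-type mice, a separation of the groups by a difference of -0.10 (93.1% of wild-type, limma unadjusted p = 0.179). *Pms2*, the MutL subunit that nicks the strand, stood at 6.31, 6.19 and 6.49 in NL-G-F·Mutyh mice, against 6.38, 6.43 and 6.49 in wild-type mice, overlapping at 92.8% of wild-type. The differences of *Msh3* (0.02) and *Msh6* (0.07) turned to -0.01 in each case, *Msh3* without wild-type replicate 3 or NL-G-F·Mutyh replicate 3 and *Msh6* without wild-type replicate 2.

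**Figure D4:**
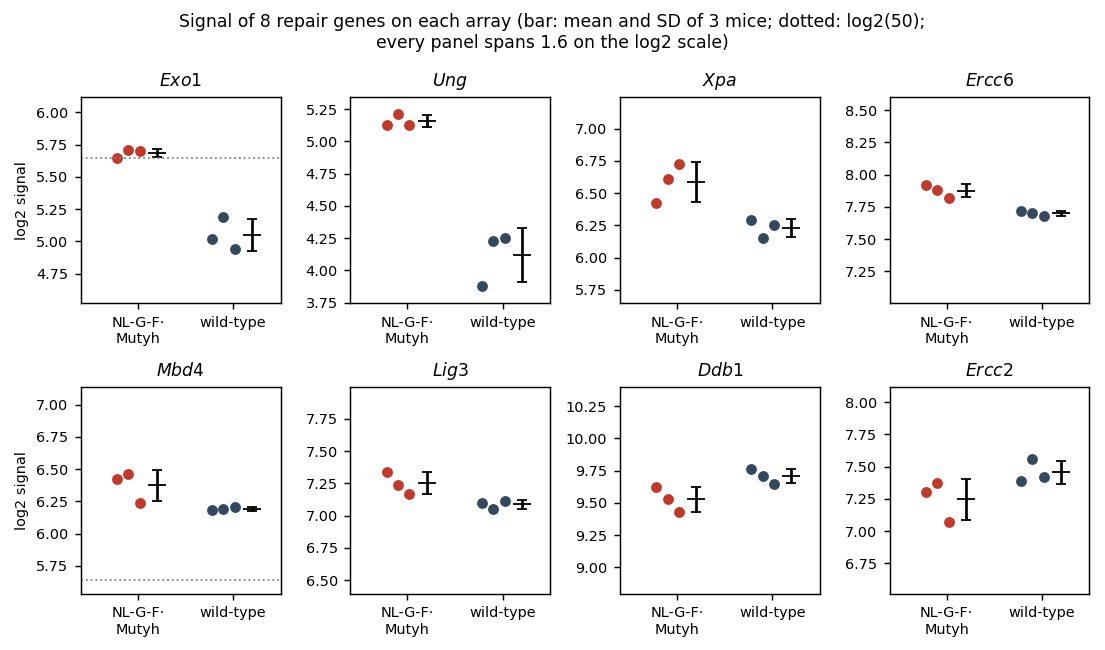
Log2 signal (vertical axis) of 8 repair genes on each array, NL-G-F·Mutyh (red) left and wild-type (dark blue) right, with the mean and SD of 3 mice beside the points and a dotted line at log2(50) where it falls in the panel. The 8 genes are a selection, and the groups do not overlap in any panel. The distance between the means runs from 1.04 in *Ung* to 0.16 in *Lig3*, with *Ddb1* and *Ercc2* lower in NL-G-F·Mutyh mice. Of all 47 members, 11 (23.4%) lay wholly above and 6 (12.8%) wholly below wild-type, against 14.4% and 8.56% of all clusters. In the remaining members the groups overlapped.

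Nucleotide excision repair held 2 of the 3 tested members at an unadjusted p under 0.05, *Xpa* and *Ercc6*. They made up 20% of its 10 genes, against 13.6% of all tested clusters. In 6 of the 10 genes of this route the groups did not overlap. The route had no common direction, with 6 genes above and 4 below 0. Its median of 0.02 became -0.03 when arrays were centred on the median over all clusters. Over all routes, 9 of 42 tested members (21.4%) lay wholly above and 6 (14.3%) wholly below wild-type, where 13.9% and 8.11% of all tested clusters did.

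*Xpa* encodes the zinc finger protein that checks the lesion and assembles the incision complex. It stood at 6.42, 6.61 and 6.73 in NL-G-F·Mutyh mice, against 6.29, 6.15 and 6.25 in wild-type mice. The groups did not overlap, although the lowest NL-G-F·Mutyh value lay near the highest wild-type value. The difference was 0.36 ± 0.10 (SE; 95% interval 0.13 to 0.59), or 128% of wild-type, with an unadjusted p = 0.00808 and adjusted p = 0.239 (limma). Over 18 alternatives it ran from 0.29 to 0.44, with an unadjusted p under 0.05 in all of them and an adjusted p of 0.106 to 0.535.

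*Ercc6* encodes CSB, a remodelling factor that recognises a stalled RNA polymerase. It stood at 7.92, 7.88 and 7.82 in NL-G-F·Mutyh mice, against 7.72, 7.70 and 7.68 in wild-type mice. Both groups were tight and lay apart, by 0.18 ± 0.06 (SE; 95% interval 0.02 to 0.33; 113% of wild-type; limma unadjusted p = 0.031, adjusted p = 0.328). The unadjusted p was under 0.05 in 10 of 18 alternatives, and it reached up to 0.105 when wild-type replicate 2 or 3 or NL-G-F·Mutyh replicate 1 or 2 was left out. *Ercc8*, which encodes its partner CSA, stood at 6.51, 6.60 and 6.66 in NL-G-F·Mutyh mice, against 6.32, 6.50 and 6.44 in wild-type mice. All NL-G-F·Mutyh values lay above the wild-type ones by a narrow margin (0.17, 112% of wild-type, limma adjusted p = 0.41).

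The 250 bases before the start of the pair of genes past the unadjusted threshold in this route (RefSeq, GRCm38.p6) are printed 5′ to 3′ to set them beside that of *Ung*. *Xpa* lies on the minus strand at chr4:46196312-46196561 and *Ercc6* on the plus strand at chr14:32513271-32513520, and capitals mark a CCAAT box in *Xpa* and a GC box (as CCGCCC) in *Ercc6*.
Xpa: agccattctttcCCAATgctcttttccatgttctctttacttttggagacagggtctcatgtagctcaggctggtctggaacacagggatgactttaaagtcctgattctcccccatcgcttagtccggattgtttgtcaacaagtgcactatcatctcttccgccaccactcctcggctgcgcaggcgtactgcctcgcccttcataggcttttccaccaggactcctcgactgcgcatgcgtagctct
Ercc6: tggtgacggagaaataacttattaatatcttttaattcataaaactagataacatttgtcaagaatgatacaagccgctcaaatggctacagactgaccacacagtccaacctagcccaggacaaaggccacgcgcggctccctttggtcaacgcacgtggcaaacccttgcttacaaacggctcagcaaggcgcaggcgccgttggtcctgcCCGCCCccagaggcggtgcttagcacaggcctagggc
The windows of *Xpa* and *Ercc6* held 1 such match each and no E2F word, and neither shared a marked motif with the other.

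The factors that find lesions outside transcribed strands lay on opposite sides of wild-type. *Xpc*, the sensor of the global route, stood at 6.89, 6.87 and 6.87 in NL-G-F·Mutyh mice, against 6.83, 6.62 and 6.74 in wild-type mice (0.14, 110% of wild-type, limma adjusted p = 0.444). *Ddb1*, the adaptor of the ultraviolet damage sensor and of many ubiquitin ligases, stood at 9.62, 9.53 and 9.43 in NL-G-F·Mutyh mice, against 9.76, 9.71 and 9.65 in wild-type mice. The groups did not overlap for either gene, with *Xpc* above and *Ddb1* below wild-type, and for *Ddb1* the difference was -0.18 ± 0.08 (SE; 88.4% of wild-type, 95% interval -0.36 to 0.01, limma adjusted p = 0.375).

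*Ercc2*, which encodes the helicase XPD of the transcription factor TFIIH, had the lowest value relative to wild-type of the 42 tested members. It stood at 7.30, 7.37 and 7.07 in NL-G-F·Mutyh mice, against 7.39, 7.56 and 7.42 in wild-type mice. The groups nearly touched without overlapping, and the difference was -0.22 ± 0.10 (SE; 86% of wild-type, 95% interval -0.45 to 0.02, limma adjusted p = 0.393). The other TFIIH helicase, *Ercc3*, was at 102% of wild-type. The nuclease genes *Ercc1*, *Ercc4* and *Ercc5*, whose products cut on either side of the lesion, were at 101%, 96.3% and 98.8%, with overlapping groups.

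Strand break repair held no gene at an unadjusted p under 0.05 among its 12 tested members, against 13.6% of all tested clusters. Its median difference was -0.05 with 5 above and 7 below 0. The median was 0.02 without NL-G-F·Mutyh replicate 2 and -0.10 with array weights or with arrays centred on the median over all clusters. *Atm*, the kinase activated by double strand breaks, stood at 7.44, 7.42 and 7.37 in NL-G-F·Mutyh mice, against 7.30, 7.41 and 7.29 in wild-type mice. *Atr*, the kinase of single-stranded DNA, stood at 6.60, 6.58 and 6.60 in NL-G-F·Mutyh mice, against 6.41, 6.66 and 6.90 in wild-type mice. The groups overlapped for both, at 105% and 95.5% of wild-type. A second *Atr* cluster was at 104%, so the clusters of this gene disagreed in sign, and the difference of -0.07 of the brighter one became 0.06 without wild-type replicate 3. Of the complex that tethers broken ends, *Rad50* was at 97%, *Mre11a* at 95.7% and *Nbn* at 89% of wild-type. *Nbn* stood at 7.06, 6.93 and 7.17 in NL-G-F·Mutyh mice, against 7.16, 7.48 and 7.02 in wild-type mice, and its groups overlapped (95% interval -0.48 to 0.15).

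Among the mediators, *Trp53bp1*, which protects ends from resection, stood at 8.53, 8.63 and 8.62 in NL-G-F·Mutyh mice, against 8.74, 8.74 and 8.69 in wild-type mice. Each NL-G-F·Mutyh value lay below each wild-type value (-0.13, 91.4% of wild-type, 95% interval -0.29 to 0.03, limma adjusted p = 0.429). *H2ax*, the histone variant phosphorylated around breaks, stood at 8.70, 8.60 and 8.46 in NL-G-F·Mutyh mice, against 8.75, 8.72 and 8.67 in wild-type mice. It was at 91.5% of wild-type (*H2afx* in the list) and its reader *Mdc1* at 106%, with overlapping groups.

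*Brca1* and *Brca2*, which act in homologous recombination, were below the minimum. *Brca1* stood at 4.44, 4.72 and 4.61 in NL-G-F·Mutyh mice, against 4.21, 3.99 and 4.33 in wild-type mice. The groups lay apart by 0.41 ± 0.12 (SE; 95% interval 0.11 to 0.71; 133% of wild-type; limma without a minimum, unadjusted p = 0.0148, adjusted p = 0.248). *Brca2*, a mediator of homologous recombination, stood at 5.59, 5.31 and 5.26 in NL-G-F·Mutyh mice, against 5.29, 5.35 and 5.35 in wild-type mice, with overlapping groups at 104% of wild-type. With these dim genes included, 4 of 47 members (*Brca1*, *Exo1*, *Ung* and *Xpa*; 8.51%) were at an unadjusted p under 0.05, against 14.2% of all clusters in either direction and 9.1% higher, and *Ercc6* had an unadjusted p = 0.051 in that fit. None of the 47 passed its adjusted test, against 0.0314% of all clusters. The groups did not overlap in 11 members above (23.4%) and 6 below wild-type (12.8%), against 14.4% and 8.56% of all clusters.

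For end joining, the subunits of the Ku ring that binds broken ends lay on opposite sides of wild-type. *Xrcc5*, which encodes Ku80, stood at 7.26, 7.27 and 7.35 in NL-G-F·Mutyh mice, against 7.15, 7.16 and 7.21 in wild-type mice. *Xrcc6*, which encodes Ku70, stood at 6.75, 6.54 and 6.71 in NL-G-F·Mutyh mice, against 6.87, 6.76 and 6.79 in wild-type mice. The groups did not overlap for either, at 109% of wild-type (95% interval -0.04 to 0.27, limma adjusted p = 0.459) and 90.5% (-0.34 to 0.05, adjusted p = 0.474). The kinase *Prkdc* and the ligase *Lig4*, which complete the joint, were at 105% and 101% with overlapping groups.

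Of 58 further repair genes outside the 51, 50 had a cluster of their own and 42 were tested, with a median difference of 0.05 and none past the adjusted threshold. At an unadjusted p under 0.05, 4 of the 42 (9.52%) were higher and 0 lower, a share near the 8.88% of all tested clusters that were higher. Among those below the minimum, *Chek2* was higher (144% of wild-type, unadjusted p = 0.011) and *Chek1* lower (80.6%, unadjusted p = 0.0131) in limma's fit without a minimum. Of all clusters below the minimum in both groups, 18% had an unadjusted p under 0.05 in that fit. *Parp3*, a polymerase of strand break ends, was higher by 0.21 but was tested only because its NL-G-F·Mutyh mean reached the minimum (5.70, against 5.50 in wild-type mice). *Rpa3*, the small subunit of the single strand binding protein, was higher by 0.32. In nucleotide excision *Cetn2*, a partner of XPC, was higher by 0.20 and *Gtf2h4*, a TFIIH subunit, by 0.26.

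Cell markers differed between the groups beside these genes. Of 4 markers of activated microglia all 4 passed limma's adjusted test, *Clec7a* among them reaching the minimum only in NL-G-F·Mutyh mice (6.59, against 4.47 in wild-type mice). Their summed linear signal was 1913 to 2073 in NL-G-F·Mutyh mice, against 983 to 1065 in wild-type mice. The 5 general microglial markers summed to 1268 to 1294 in NL-G-F·Mutyh mice, against 1093 to 1170 in wild-type mice. At an unadjusted p under 0.05, 3 were higher, while *Cx3cr1* (100% of wild-type) and *Tmem119* (92.3%) were not. Over all tested clusters, 8.88% were higher and 4.75% lower at that threshold. Neuron markers summed to 16571 to 17321 in NL-G-F·Mutyh mice, against 15834 to 17541 in wild-type mice, and 0 of 4 were at that threshold. Oligodendrocyte markers summed to 1521 to 1635 in NL-G-F·Mutyh mice, against 1654 to 1932 in wild-type mice, with 2 of 3 lower. Astrocyte markers summed to 4196 to 4367 in NL-G-F·Mutyh mice, against 3360 to 3721 in wild-type mice, with 1 of 4 (*Gfap*, 10.53 against 9.86) higher at an unadjusted p under 0.05, while *Aldh1l1* lay wholly below wild-type at 85.6%. Of 3 markers each, dentate granule cells had 1 higher, CA1 pyramidal cells and endothelium 1 lower, and choroid plexus 0, and the 2 oligodendrocyte precursor markers had 0. The choroid plexus sum varied widely within both groups, from 6312 to 12584 in NL-G-F·Mutyh mice, against 3333 to 13556 in wild-type mice. The proliferation markers *Mki67* and *Top2a* lay below the minimum in both groups, with sums of 56.2 to 64.8 in NL-G-F·Mutyh mice, against 62 to 70 in wild-type mice. *Top2a* lay wholly below wild-type, at 82.8% (limma without a minimum, unadjusted p = 0.0179, adjusted p = 0.262). *Mki67* was at 97.1%, with overlapping groups. The part of these markers in the repair gene values was not tested.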

How the data were processed

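Hippocampal RNA of 6 mice, 3 in each group, was hybridised to GeneChip Mouse Gene 2.0 ST arrays, and the deposited log2 values were made by the authors with Transcriptome Analysis Console 4.0. A summarization method, a genome build and a statement on joint processing of the groups were not given in the sources used here. All per-sample columns were used. Clusters whose mean reached 50 (log2 5.64) in 1 or both groups were fitted with limma 3.58.1 in R 4.3.3 (lmFit, eBayes, 2 groups, two-sided) with Benjamini-Hochberg adjustment over 21159 clusters, and the fit was tested on simulated data. Intervals are 95% and come from the same fit (for members below the minimum, from a fit without one), and percent of wild-type is 2 to the power of the difference. The number of arrays limits the precision. The repair genes, their routes and the marker lists were chosen with earlier results of these data known. Values on every array are given for members at an unadjusted p under 0.05, the 2 with the smallest p in each role, the one with the largest SD and those with the highest and lowest level in each route, and members below the minimum. *Nthl1*, *Ercc8* and *Xpc* were added to these after their values were seen. Alternatives covered the minimum, symbol filter, scaling, moderation, array weights, replicate block and leaving out each array. The spread of the wild-type arrays alone and the removal of clusters with values shared between NL-G-F·Mutyh arrays were added after seeing the data. Promoters came from RefSeq (GRCm38.p6), in a window of 250 bases, and motifs were searched on both strands.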

Additional observations from a re-analysis of the deposited data

How the results depend on the processing

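Clusters past the adjusted test numbered 13 and became 8 with the minimum required in both groups, 43 with clusters of 1 symbol only, 42 with array weights, 2 with the spread of the wild-type arrays alone, and 2 to 3 when 1 array was left out. At an unadjusted p under 0.05 there were 2883 clusters, 5876 with no minimum, and 1889 to 3047 when 1 array was left out, the lowest without NL-G-F·Mutyh replicate 2. Members at that threshold numbered 3 and became 6 with clusters of 1 symbol only, 5 under quantile normalization, 5 with centring on the median over all clusters, 7 with array weights, and 2 to 5 when 1 array was left out. With that centring the median difference became 0.004 in base excision (0.05 as deposited), -0.03 in mismatch (0.02), -0.03 in nucleotide excision (0.02) and -0.10 in strand break repair (-0.05). When 1 array was left out the strand break median ran from -0.07 to 0.02, the mismatch median from -0.01 to 0.07, and the nucleotide excision median from -0.002 to 0.08. Signs turned for *Lig1* (-0.02 with array weights) and *Msh3* (-0.03 with centring, -0.01 with array weights), and over the single arrays left out for *Fen1* (-0.21 to 0.01), *Msh6* (-0.01 to 0.12), *Msh3* (-0.01 to 0.08) and *Atr* (-0.19 to 0.06). *Exo1*, at a difference of 0.63, passed the adjusted test with clusters of 1 symbol only (adjusted p = 0.0319, range over alternatives 0.0319 to 0.406), and the cause of these shifts was not tested.

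Same-numbered arrays of the 2 groups deviated from their group means with correlations of -0.0952, 0.0237 and -0.0628. Differently numbered arrays had correlations from -0.0669 to 0.129. This gave no sign that the replicate numbers paired the arrays, but 3 arrays per group cannot exclude it. With the replicate number as a block, 2 clusters passed the adjusted test and 2 members (*Exo1* and *Xpa*) were at an unadjusted p under 0.05. With 3 mice per group, the 95% intervals of the members reached 0.15 to 0.34 to either side on the log2 scale, with a median of 0.19. Differences smaller than the reach of a gene's own interval were not resolved, and signals near the minimum lay at the dim end of the arrays.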
